A study of Mus musculus with 48 samples.

Results

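The 8 oligodendrocyte lineage transcription factors described here are Olig1, Olig2, Sox8, Sox10, Nkx2-2, Nkx6-2, Zfp488 and Zfp536. They were read through the non-control probes whose gene name in the scanner files was one of these 8 symbols, which gave 11 of the 55681 probes on the array and 8 of its 34797 gene names. Olig1, Olig2, Sox8, Sox10 and Nkx6-2 had 1 probe each, whereas Nkx2-2, Zfp488 and Zfp536 had 2. Where 1 probe stands for a gene, the probe with the highest mean signal over the 48 arrays was taken as its leading probe.

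Expression was measured with single-colour Agilent mouse arrays in cells sorted with magnetic beads from male mouse pups, whose strain is swiss in the labels and OF1 in the study's methods. O4+ cells, which carry a surface antigen of late oligodendrocyte precursors and immature oligodendrocytes, were taken first, and CD11B+ microglia were then taken from the remaining cells of the same animals. Pups received intraperitoneal PBS or the inflammatory cytokine interleukin 1 beta (IL1B, 10 ng/g) over postnatal days (P) 1 to 5, and cells were collected at P5, a few hours after the last injection, or at P10. Each of the 8 groups (O4+ or CD11B+, PBS or IL1B, P5 or P10) had 6 arrays, the labels give no engineered allele, and each array held RNA pooled from several pups according to the methods. The description field of the P10 samples repeats the text for P5, so the stage was taken from titles and source names. With 6 arrays a group, the precision of each value below is set by that number.

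Oligodendrocytes arise from progenitors in a sequence of steps that these proteins control. Olig1 and Olig2 are basic helix-loop-helix factors, and Olig2 specifies the lineage. Sox8 and Sox10 are related SOXE proteins of the high-mobility-group family, and Sox10 binds myelin gene enhancers throughout differentiation. Nkx2-2 and Nkx6-2 are homeodomain repressors, of which Nkx2-2 promotes the exit from the precursor state and Nkx6-2 is known from mature myelinating cells. Zfp488 and Zfp536 are zinc finger proteins, and Zfp488 is an oligodendrocyte-enriched partner of Olig2.

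The probes are shown because their place in the transcript decides which RNA each signal reads. All positions refer to the mouse build mm9 given in the scanner files, and letters are written 5′ to 3′ on the transcript strand. 3 of the probes for single-probe genes hold the bases of a polyadenylation signal, marked in capitals. Whether these bases act as a signal, and where the probes lie in their messages, was not tested.
Nkx6-2 (chr7:146767142-146767171, minus strand): ctttgtataatcAATAAAttatttaacacg
Sox10 (chr15:78985518-78985547, minus strand): tccagcgataccttAATAAAgtacgtagct
Olig1 (chr16:91271826-91271855, plus strand): attaacgttctcATTAAAgtaagcggagtt
Both Zfp536 probes lie next to each other and share the 11 bases in capitals, so they are no independent measurement of each other.
Zfp536 other probe (chr7:38264301-38264330, minus strand): tctggatgtatcaagaggcCAGACTTGTGT
Zfp536 leading probe (chr7:38264282-38264311, minus strand): CAGACTTGTGTggtaagttttagaatcctc
The Zfp488 probes differ in another way. The files align all 60 bases of the other probe (chr14:34780296-34780355) but only 31 bases of the leading probe (chr14:34780239-34780269). The leading probe opens with 29 bases, in capitals, that also stand in the promoter window of Vmn1r7, a vomeronasal receptor gene.
Zfp488 leading probe, bases 1 to 30: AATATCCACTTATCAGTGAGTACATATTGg
A run of 15 of its bases occurred on either strand in 10 of 32851 promoter windows (250 bases before to 50 after a gene start, RefSeq, GRCm38.p6), and 2.84% of all probes matched that many windows or more. The other Zfp488 probe matched 0 windows, and the remaining members matched 0 to 3. The values of the Zfp488 leading probe in O4+ cells are therefore given together with those of the other probe. The Nkx2-2 probes belong to 2 different transcript records, at chr2:147008949-147009008 and chr2:147003307-147003366 (minus strand), the former being the leading probe.

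Values are log2 signals after quantile normalisation, over the 24 arrays of a cell type for comparisons within it and over all 48 arrays for comparisons between cell types. A probe is said to have passed the test when its Benjamini-Hochberg adjusted p in limma was under 0.05 over all 55681 probes, and to be called when the ratio of group medians was also above 1.5. Between 54.08% and 66.4% of probes were well above background on an array, no spot was saturated, and arrays of the same group correlated at 0.9617 or above. All 11 probes were well above background on every O4+ array. In CD11B+ cells this also held for 10 of them, while Nkx6-2 was well above background on 0 of 6 arrays in PBS and 1 of 6 in IL1B at P5, and on 3 of 6 and 0 of 6 at P10. Replicate 6 of both O4+ groups at P10 and of CD11B+ cells after IL1B at P10 shared a slide scanned on a day of its own, and these arrays stood apart for Sox8, Sox10 and the other Zfp536 probe. Results that rest on them are given with and without that slide where it matters.

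The sort was checked on genes fixed for each cell type. In PBS cells, 7 of the 8 factors were called higher in O4+ than in CD11B+ cells at P5 and 8 of 8 at P10, against 19.8% and 22.2% of all probes. The median difference of the 8 genes was 4.71 log2 units at P5 and 4.27 at P10. Microglia markers were also read in the O4+ arrays, with a mean log2 level over 15 genes of 13.71 ± 0.21 (SD, n = 6) in PBS cells at P5, against 16.07 ± 0.04 in CD11B+ cells on the scale of 48 arrays. In these bulk samples, fewer cells of a type and less RNA per cell cannot be told apart.

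**Figure D1:**
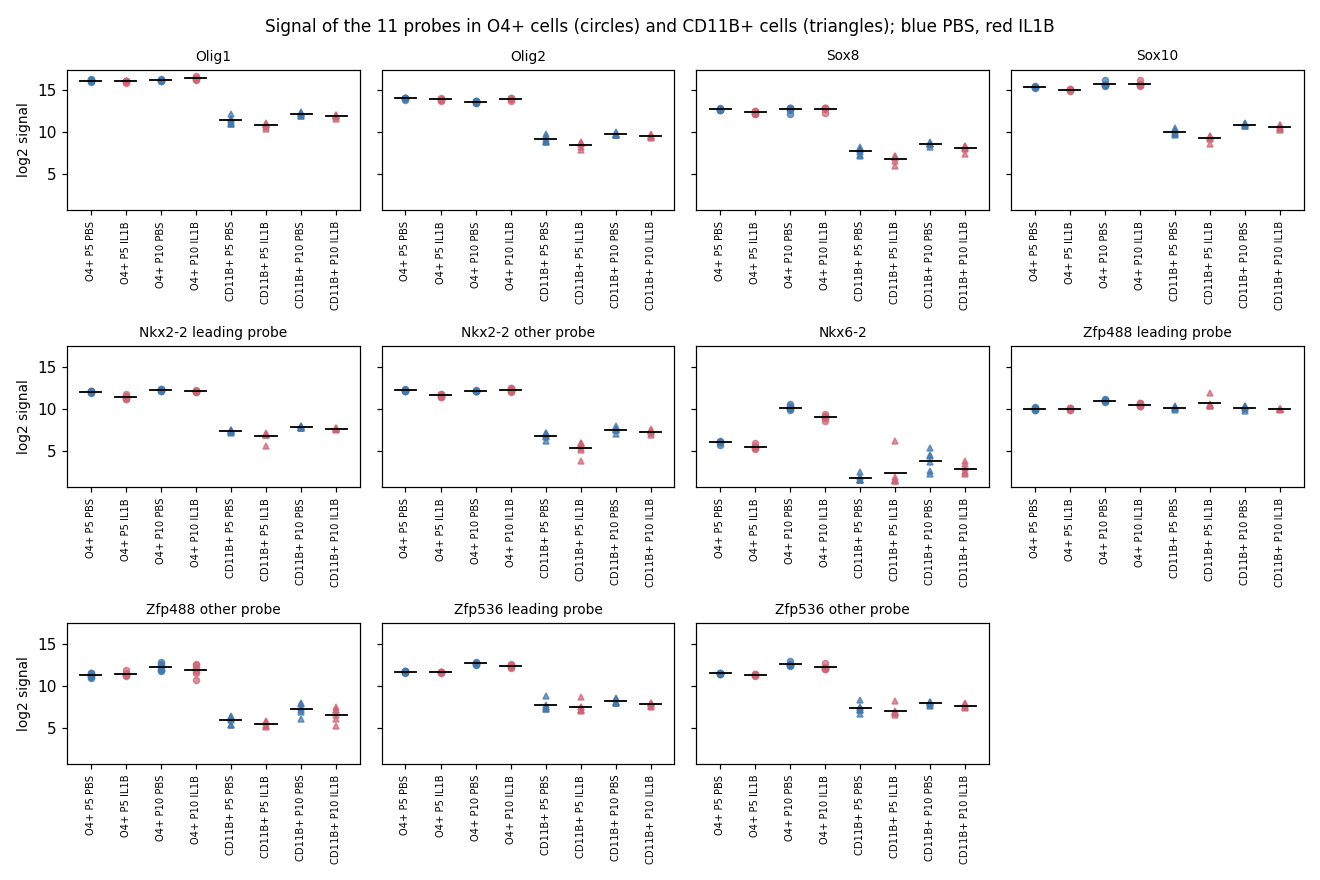
Log2 signal of the 11 member probes in the 8 groups, quantile-normalised over all 48 arrays, with 1 point per array and the group mean as a black line. In group means, all probes but the Zfp488 leading probe sit several log2 units higher in O4+ than in CD11B+ cells. For Nkx6-2, 1 CD11B+ array after IL1B at P5 reaches the O4+ values of that stage, and the other 5 lie near the bottom of the scale.

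Sox10 showed the largest separation of a leading probe measured above background in both cell types at P5. Its level, normalised over 48 arrays, averaged 15.34 in O4+ and 10.01 in CD11B+ cells from PBS pups (difference 5.33 ± 0.14 log2 units, SE, limma adjusted p = 2.21e-11). Sox8, Olig2, Olig1 and the leading Nkx2-2 probe differed by 5.00, 4.86, 4.73 and 4.69 log2 units. At P10 the same differences were 4.78 for Sox10, 4.13 for Sox8, 3.88 for Olig2, 4.03 for Olig1 and 4.40 for Nkx2-2. Nkx6-2 was not well above background on any CD11B+ array from PBS pups at P5, so the O4+ level of 6.03 stood at least 4.05-fold higher than the bound (measured CD11B+ mean 1.78, limma adjusted p = 3.08e-10). After IL1B at P10 the corresponding bound was at least 30.5-fold. In PBS cells at P10, 3 of 6 CD11B+ arrays measured Nkx6-2 above background.

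The pair of Zfp488 probes gave opposite pictures of this gene. By the other probe Zfp488 was 5.34 ± 0.19 log2 units higher in O4+ than in CD11B+ cells at P5 (limma adjusted p = 2.6e-10) and 5.04 ± 0.31 at P10. By the leading probe the difference was -0.13 ± 0.09 at P5, which did not pass (limma adjusted p = 0.229), and 0.85 ± 0.10 at P10. Within CD11B+ cells at P5, the leading probe read 9.72 to 10.24 in PBS samples while the other probe read 5.10 to 6.08. Both Zfp536 probes stood about equally far apart between the cell types, by 3.99 and 4.12 log2 units at P5 and by 4.50 and 4.64 at P10.

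The course from P5 to P10 without inflammation was taken from the PBS O4+ cells. The O4+ arrays of P5 and of P10 were on different slides and scan days, so age and scan day cannot be told apart in these comparisons. Nkx6-2, Zfp488 and Zfp536 were called higher at P10, Sox10 and Nkx2-2 passed the test with smaller rises, and Olig2 fell. Olig1 and Sox8 did not pass. In counts, 5 of 8 genes passed higher and 1 lower, where 17.4% and 16.6% of all probes did, and 3 were called higher, where 7.87% of all probes were. The median change of the 8 genes was 0.25 log2 units against 0.02 for all probes.

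**Figure D2:**
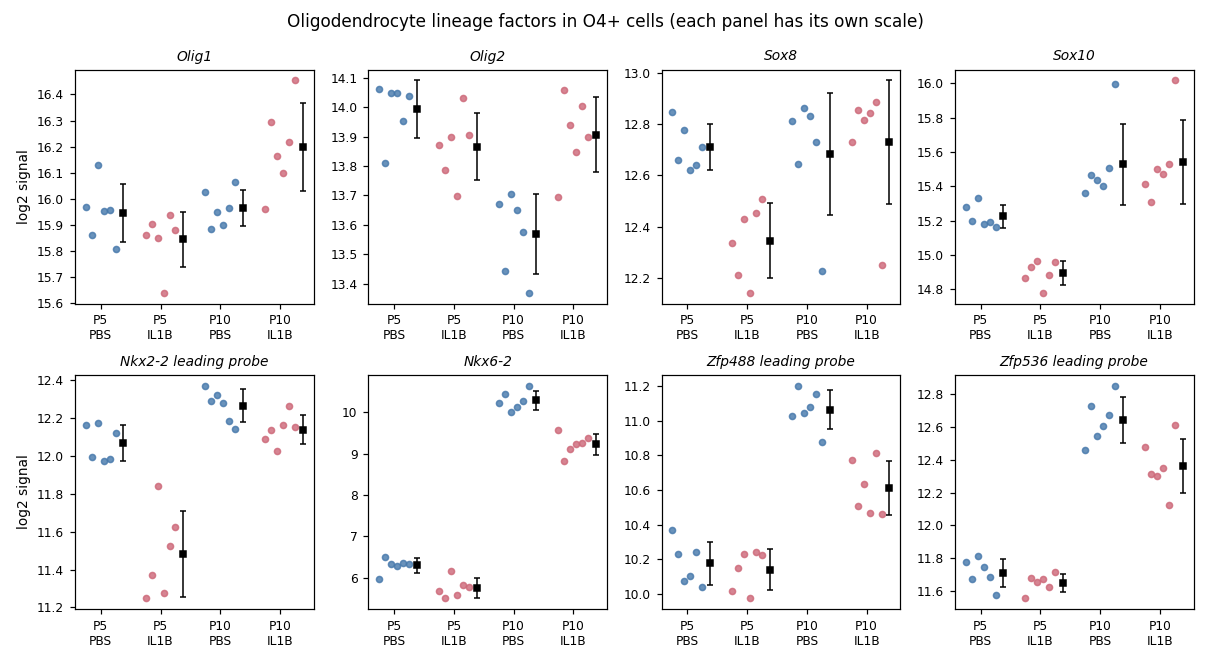
Log2 signal of the 8 leading probes in the 4 O4+ groups, quantile-normalised over 24 arrays, with 1 point per array and the mean ± SD as a black square; each panel has its own scale. Nkx6-2 spans the widest range, from about 6 in PBS cells at P5 to about 10 at P10, and its IL1B arrays at P10 all lie below the PBS arrays.

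Nkx6-2, the homeodomain factor of maturing oligodendrocytes, changed most. Its log2 signal ran from 5.97 over a median of 6.33 to 6.49 in PBS cells at P5 and from 10.00 over 10.25 to 10.65 at P10. All 6 arrays at P10 exceeded all 6 at P5, and the rise was 3.99 ± 0.11 log2 units (SE, limma adjusted p = 1.1e-09), or 15.2-fold as a ratio of medians. Across the 4 O4+ groups its levels ordered as IL1B at P5 (mean 5.75), PBS at P5 (6.30), IL1B at P10 (9.23) and PBS at P10 (10.29). The 2 groups of P5 overlapped, and the 2 groups of P10 did not.

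Zfp536 and Zfp488 followed at a smaller scale. The leading Zfp536 probe read 11.58, 11.71 and 11.81 (lowest, median and highest) at P5 and 12.46, 12.64 and 12.85 at P10, a rise of 0.93 ± 0.07 log2 units (limma adjusted p = 1.23e-06), and the neighbouring probe rose by 1.03 ± 0.09. The leading Zfp488 probe read 10.04, 10.17 and 10.37 at P5 and 10.87, 11.06 and 11.20 at P10. Its rise was 0.89 ± 0.07 (limma adjusted p = 2.37e-06), and the fully aligned Zfp488 probe rose by 0.93 ± 0.18 (limma adjusted p = 0.00139). For all 4 of these probes the arrays of P10 lay above those of P5 without overlap.

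Among the SOXE genes, Sox10 rose by 0.30 ± 0.10 log2 units (limma adjusted p = 0.0325), from 15.16, 15.19 and 15.33 at P5 to 15.36, 15.45 and 16.00 at P10. The highest value was that of the array on the slide that stood apart, and the other 5 arrays at P10 still lay above all arrays of P5. Sox8 differed by -0.02 ± 0.10. Nkx2-2 rose by 0.20 ± 0.06 by its leading probe (limma adjusted p = 0.0189), while its other probe changed by -0.07 ± 0.05 and did not pass.

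Olig2, which specifies the lineage, moved the other way. Its signal was 13.81, 14.04 and 14.06 at P5 and 13.37, 13.61 and 13.71 at P10, with all arrays of P10 below those of P5 (change -0.42 ± 0.07, limma adjusted p = 0.000582). When arrays were instead scaled by their 75th percentiles, the Olig2 change was -0.01 (limma adjusted p = 0.908), while the median over all probes stood at 0.22, so the fall of Olig2 was relative to most probes and was not seen on that scale. Olig1 changed by 0.02 ± 0.06.

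The other genes of the programme were described from lists. Among 22 further activators and partners of the lineage, 8 passed higher and 9 lower with age in PBS O4+ cells. Myrf, the myelin gene regulatory factor that the array names Gm98, rose by 1.82 log2 units, St18 by 1.53 and the thyroid-hormone-responsive Klf9 by 1.40, whereas Sox9 fell by 1.44. Of 12 repressors of oligodendrocyte differentiation, 0 passed higher and 9 lower, among them the Notch targets Hes1 (-1.41) and Hes5 (-1.28). Of 16 myelin genes of the terminal stage, 15 passed higher, with Mobp at 7.79 and Opalin at 6.28, and of 8 progenitor genes 1 passed higher and 4 lower, Pdgfra by -1.35 and Cspg4 by -1.15. Microglia markers in the same arrays were lower at P10 for 12 of 15 genes (median -1.23) and higher for 1, Itgam (0.97). Endothelial markers were lower for 4 of 6 genes (median -0.81), among them Cdh5 by -1.26 and Cldn5 by -1.04. The part of these shifts in the members' values was not tested.

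IL1B and PBS were compared in O4+ cells at P5 to ask what the factors did during the exposure. Nkx2-2, Nkx6-2, Sox8 and Sox10 were lower after IL1B, by 0.33 to 0.59 log2 units, and no member was higher. Olig1, Olig2, Zfp488 and Zfp536 did not pass. Thus 4 of 8 genes passed lower, where 11.5% of all probes did, and 0 of 8 passed higher in limma (6.75% of all probes), also at an unadjusted p under 0.05 and by the methods' t-test (a test of each probe alone). Of the lower genes, 2 (Nkx2-2 and Nkx6-2) were called, where 1.49% of all probes were. With normexp background correction 0 genes were called lower, and 1 was called with 75th percentile scaling or with the fold taken from mean log2 values. The median change of the 8 genes was -0.23 log2 units, and that of all probes -0.04.

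**Figure D3:**
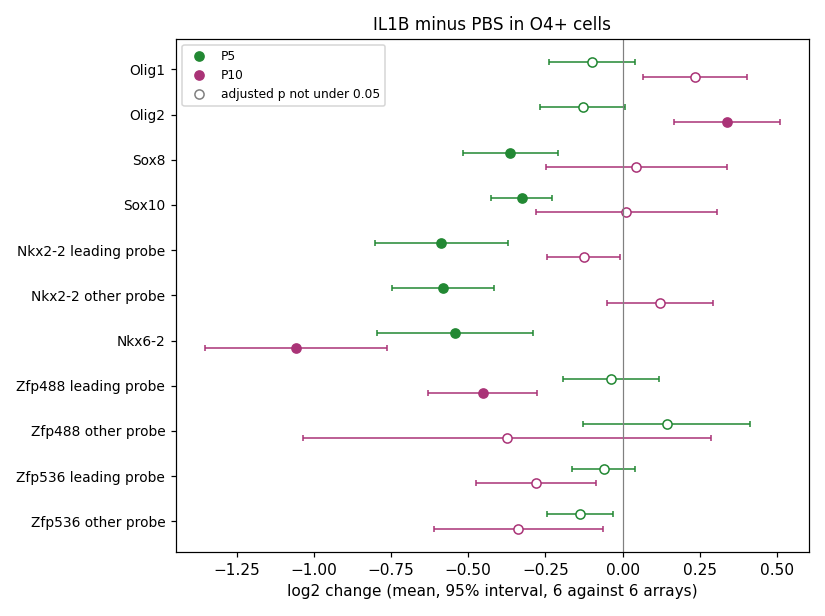
Change in log2 signal from PBS to IL1B in O4+ cells for the 11 probes, with 95% confidence intervals, at P5 (green) and P10 (purple); filled points passed the limma test at an adjusted p under 0.05. At P5 the filled points are Sox8, Sox10, both Nkx2-2 probes and Nkx6-2, all below 0; at P10 they are Olig2 above 0 and Nkx6-2 and the leading Zfp488 probe below 0.

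Nkx2-2 showed the largest decrease. Its leading probe read 11.97, 12.06 and 12.18 (lowest, median, highest) in PBS and 11.25, 11.45 and 11.84 in IL1B cells. Every IL1B array lay below every PBS array, and the change was -0.59 ± 0.10 (limma adjusted p = 0.00176, ratio of medians 1.53-fold lower). The second probe, of the other transcript record, fell by 0.58 ± 0.08 with no overlap either (limma adjusted p = 0.000356), but its ratio of medians of 1.48 was below the fold threshold.

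Nkx6-2 read 5.97, 6.33 and 6.49 in PBS and 5.50, 5.73 and 6.17 in IL1B cells. Of the 6 IL1B arrays, 5 were below all PBS arrays, and the change was -0.54 ± 0.12 (limma adjusted p = 0.00699, 1.52-fold lower as a ratio of medians). Both calls sit close to the fold threshold of 1.5. The count of 2 called genes went to 1 without PBS replicate 1, 3 or 6 and to 0 without IL1B replicate 1, 2 or 4, because the ratio of medians fell to 1.5 or less, while limma's adjusted p of Nkx2-2 lay between 0.00413 and 0.00534 under these omissions.

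The SOXE genes fell less but without overlap. Sox10 read 15.16, 15.19 and 15.33 in PBS and 14.78, 14.91 and 14.96 in IL1B cells, a change of -0.33 ± 0.04 (limma adjusted p = 0.000489). Sox8, its closest relative, read 12.62, 12.69 and 12.85 against 12.14, 12.38 and 12.51, a change of -0.36 ± 0.07 (limma adjusted p = 0.00405). For both genes all 6 IL1B arrays were below all 6 PBS arrays, and the ratios of medians were 1.22 and 1.23.

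The Olig genes and the zinc finger genes overlapped between treatments. Olig1 ranged from 15.81 to 16.13 in PBS and from 15.64 to 15.94 in IL1B cells (change -0.10, 95% interval -0.24 to 0.04). Olig2 changed by -0.13 (-0.27 to 0.01). Zfp488 changed by -0.04 (-0.19 to 0.12) on its leading probe and by 0.14 (-0.13 to 0.41) on the other. Zfp536 changed by -0.06 (-0.16 to 0.04) and -0.14 (-0.24 to -0.03), the latter with a limma adjusted p of 0.0743.

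Markers of other cells moved in the same arrays. Of 15 microglia markers, 11 passed higher after IL1B at P5 and 1 lower, with a median change of 1.05 log2 units and a mean level of 13.30 to 13.86 in PBS and 14.42 to 14.81 in IL1B arrays. Of 7 neutrophil and monocyte markers measured, 6 passed higher with a median change of 5.06, and their mean level went from 4.42 to 5.26 in PBS arrays up to 6.93 to 10.10 in IL1B arrays. Among these markers, Ngp and Ltf were well above background on 0 of 6 PBS arrays, so the size of their rise is measured from near background. Of 6 endothelial markers, 4 passed lower, with a median change of -0.80. The part of these shifts in the lower Nkx2-2, Nkx6-2, Sox8 and Sox10 signals was not tested. Most PBS arrays and most IL1B arrays of this stage were on different slides. The 2 slides that held both had only 1 IL1B array each, against 4 and 2 PBS arrays. This single IL1B array differed from the PBS arrays of its slide by -0.66 and -0.90 for Nkx2-2 and -0.78 and -0.65 for Nkx6-2. The differences were -0.48 and -0.41 for Sox8, and -0.28 and -0.38 for Sox10.

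Outside the 8 genes, 11 of the 22 further activators and partners passed lower and 1 higher at P5. Nkx6-1, a homeodomain relative of Nkx6-2, was called lower by 0.92 log2 units, and Klf9 was called higher by 0.90. Among the repressors, Id2 rose by 1.45, while 5 passed lower, including Id1 (-0.93) and Id3 (-0.55). Of the 16 myelin genes, 10 passed lower but 1, Opalin, was called (-0.78), and of the progenitor genes 2 of 8 passed lower.

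At P10, 5 days after the last injection, a different set stood out in O4+ cells. Nkx6-2 was 1.06 log2 units lower in cells from IL1B pups, the leading Zfp488 probe was 0.45 lower, and Olig2 was 0.34 higher. Sox8 and Sox10 were within 0.05 of PBS. Hence 2 of 8 genes passed lower (5.43% of all probes) and 1 higher (5.41%), and 1 was called lower (1.41%).

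Nkx6-2 read 10.00, 10.25 and 10.65 in PBS and 8.82, 9.25 and 9.58 in IL1B cells at P10. All IL1B arrays were below all PBS arrays, and the change was -1.06 ± 0.14 (limma adjusted p = 0.0017, 2.00-fold lower as a ratio of medians). On the 2 slides holding both treatments, its difference was -1.02 (2 IL1B against 5 PBS arrays) and -1.27 (1 against 1). Without the slide that stood apart, the difference was -1.02. The Zfp488 leading probe read 10.87, 11.06 and 11.20 in PBS and 10.46, 10.57 and 10.81 in IL1B cells, again with no overlap (-0.45 ± 0.08, limma adjusted p = 0.00649, 1.40-fold). The fully aligned Zfp488 probe varied much more, from 11.84 to 12.81 in PBS and from 10.73 to 12.55 in IL1B cells, and its change of -0.37 ± 0.30 did not pass (limma adjusted p = 0.513).

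Olig2 read 13.37, 13.61 and 13.71 in PBS and 13.70, 13.92 and 14.06 in IL1B cells at P10, with 5 of 6 IL1B arrays above all PBS arrays (0.34 ± 0.08, limma adjusted p = 0.0193). With 75th percentile scaling, under which the median of all probes stood at -0.19, the Olig2 change was 0.11 (limma adjusted p = 0.311). Olig1 changed by 0.23 ± 0.08 (limma adjusted p = 0.077) and by -0.04 under 75th percentile scaling. Zfp536 changed by -0.28 ± 0.09 (limma adjusted p = 0.0666), and by -0.29 without the slide that stood apart (limma adjusted p = 0.0304). Nkx2-2 changed by -0.13 ± 0.05 and 0.12 ± 0.08 on its probes, and neither passed.

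The surrounding programme at P10 was lower at its terminal end. Of 16 myelin genes, 12 passed lower and 8 were called, with Opalin at -1.27 and Aspa at -1.06, whereas 3 of 8 progenitor genes passed higher, Pdgfra by 0.94 and Cspg4 by 0.76. Of the 22 further activators and partners, 3 passed higher and 3 lower, with Sox9 at 0.68 and Klf9 at -0.80, and of the 12 repressors 4 passed higher and 0 lower, with Id2 at 0.76, Hes5 at 0.68 and Sox11 at 0.55. Microglia markers passed higher for 8 of 15 genes (median 0.50), while Itgam passed lower (-0.41). Neutrophil and monocyte markers passed higher for 6 of 7 genes (median 2.21) and astrocyte markers for 4 of 7 (median 0.45). Ngp and Ltf were well above background on 0 of 6 PBS arrays, and Mmp9 on 0 of 6 arrays of either treatment. The part of these marker shifts in the members' values was not tested.

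Because passing at one age and missing at the other does not show a difference, the response to IL1B at P10 was tested against that at P5. The response was higher at P10 for Nkx2-2 (0.46 ± 0.11, limma adjusted p = 0.00854), Olig2 (0.47 ± 0.10, limma adjusted p = 0.00337) and Olig1 (0.33 ± 0.10, limma adjusted p = 0.0297). It was lower for the leading Zfp488 probe (-0.42 ± 0.11, limma adjusted p = 0.0124). Hence 3 of 8 genes had a higher and 1 a lower response at P10, where 7.83% and 5.32% of all probes did. The second Nkx2-2 probe gave 0.70 ± 0.11 and the fully aligned Zfp488 probe -0.52 ± 0.33 (limma adjusted p = 0.375). Nkx6-2 differed by -0.51 ± 0.18, Sox8 by 0.41 ± 0.15 and Sox10 by 0.34 ± 0.14, with limma adjusted p of 0.0652, 0.0857 and 0.135. Nkx6-2 passed, as a second lower gene, when O4+ IL1B replicate 2 of P5, PBS replicate 3 of P10 or IL1B replicate 1 of P10 was left out (-0.58 to -0.56, limma adjusted p 0.0286 to 0.0474), and the call of Olig1 was lost without PBS replicate 3 or IL1B replicate 4 of P5 or replicate 2 of either P10 group (limma adjusted p 0.0526 to 0.0552). Without the slide that stood apart, Sox8 (0.41, limma adjusted p = 0.00354) and Sox10 (0.34, limma adjusted p = 0.00156) passed. The scaling mattered for the Olig genes. With 75th percentile scaling the median of all probes stood at -0.11, Olig1 turned to -0.02 (limma adjusted p = 0.942), Olig2 was 0.25 (limma adjusted p = 0.105) and the leading Nkx2-2 probe 0.34 (limma adjusted p = 0.0597), while the second Nkx2-2 probe still passed (0.58, limma adjusted p = 0.0019).

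**Figure D4:**
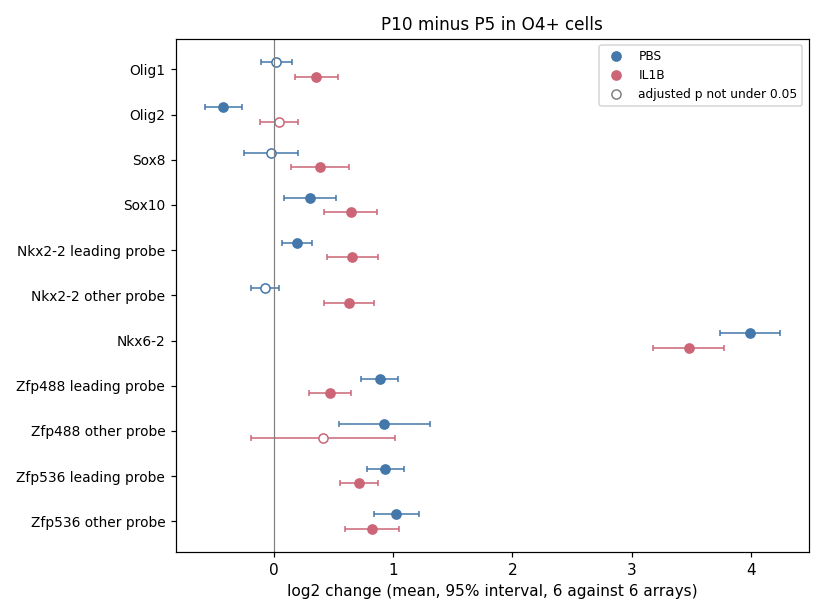
Change in log2 signal from P5 to P10 in O4+ cells for the 11 probes, with 95% confidence intervals, in PBS (blue) and IL1B (red) cells; filled points passed the limma test at an adjusted p under 0.05. Nkx6-2 rises by 3.99 in PBS and 3.48 in IL1B cells, and the leading Nkx2-2 probe by 0.20 and 0.66. Sox8 stands at -0.02 and 0.38 and Sox10 at 0.30 and 0.64, pairs whose difference did not pass over all arrays.

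The rise with age in IL1B cells completes this picture. Here 7 of 8 genes passed higher (16.9% of all probes) and 3 were called higher (6.07%). Nkx6-2 rose by 3.48 ± 0.14 log2 units, Zfp536 by 0.71 ± 0.07 and Nkx2-2 by 0.66 ± 0.10. Sox10 rose by 0.64 ± 0.10, Zfp488 by 0.47 ± 0.08 on its leading probe (the other probe changed by 0.41 ± 0.27 and did not pass), Sox8 by 0.38 ± 0.11 and Olig1 by 0.35 ± 0.08. Olig2 changed by 0.04 ± 0.07. IL1B cells at P10 were also set against PBS cells at P5, to place them on the normal course. They stood 2.93 ± 0.12 log2 units higher in Nkx6-2 (limma adjusted p = 7.46e-08), 0.65 ± 0.08 higher in Zfp536 (limma adjusted p = 0.000139) and 0.43 ± 0.08 higher in the leading Zfp488 probe. The other Zfp488 probe differed by 0.55 ± 0.28 (limma adjusted p = 0.217). These 3 of 8 genes passed higher, against 9.83% of all probes, and 2 were called, against 3.54%. Olig2 (-0.09 ± 0.07), Sox8 (0.02 ± 0.10) and Nkx2-2 (0.07 ± 0.06) overlapped with PBS cells of P5. Sox10 and Olig1 did not pass either. The median change of the 8 genes was 0.29 log2 units, and 5 of them had an unadjusted limma p under 0.05. These comparisons share groups with each other and are not independent, and age and scan day cannot be told apart in them.

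The factors were also read in CD11B+ cells, in PBS at lower levels than in O4+ cells except for the leading Zfp488 probe at P5. Among all probes in PBS CD11B+ cells at P5, Olig1 stood at percentile 88, Sox10 at 80.9 and Nkx6-2 at 14.4. At P5, Sox8, Sox10, Olig1 and Olig2 passed lower after IL1B (4 of 8 genes, 13.5% of all probes) and Sox8 and Sox10 were called (2 of 8, 5.25%). Sox8 read 6.94, 7.51 and 8.01 in PBS and 5.69, 6.67 and 6.93 in IL1B samples (-0.93 ± 0.24, limma adjusted p = 0.0161). Sox10 read 9.43, 9.83 and 10.36 against 8.35, 9.20 and 9.31 (-0.80 ± 0.20, limma adjusted p = 0.0138). For both, all IL1B arrays were below all PBS arrays. Olig1 changed by -0.64 ± 0.20 and Olig2 by -0.70 ± 0.21. The call of Sox10 sat at the fold threshold: without PBS replicate 1, 5 or 6 or IL1B replicate 2, 3 or 5, 1 gene was called in place of 2, with changes of Sox10 from -0.82 to -0.66. Progenitor genes were lower in the same arrays for 5 of 8 genes (median -0.74) and myelin genes for 7 of 16, with Gpr17, a progenitor gene, at -1.11 and Mal, a myelin gene, at -1.04, while 2 myelin genes were higher, Mag and Mog, each by 0.57. The part of oligodendrocyte RNA in these samples was not tested. With slide or scan day as a block, 0 of the 8 genes were called in limma. The changes with a slide block were -1.05 for Sox8 and -0.98 for Sox10. They came from 1 slide that held both treatments, with 4 IL1B arrays and a single PBS array, so they rest on that 1 PBS array.

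At P10, 0 of 8 genes passed between IL1B and PBS in CD11B+ cells in limma, where 6.5% of all probes passed in either direction. The median change of the 8 genes was -0.30, 6 of them had an unadjusted p under 0.05, and the methods' t-test called 0. Sox8 changed by -0.50 ± 0.16 (limma adjusted p = 0.0899), Nkx2-2 by -0.21 ± 0.07 on its leading probe (limma adjusted p = 0.0978) and Sox10 by -0.33 ± 0.11 (limma adjusted p = 0.104). From P5 to P10 in PBS CD11B+ cells, 6 of 8 genes passed higher (12% of all probes) and 5 were called (4.65%), Sox10 by 0.94 ± 0.15, Sox8 by 0.86 ± 0.17, Olig1 by 0.75 ± 0.19 and Olig2 by 0.58 ± 0.17. The fifth, Nkx6-2, was not well above background on any array of P5, and no fold is given because the bound for P5 exceeds the mean at P10. Each age was on slides and scan days of its own, so age and day cannot be told apart in these cells or in O4+ cells. With scan day as a random block, 0 of the 8 genes were called in CD11B+ cells. Myelin genes rose in the same CD11B+ arrays, among them Tspan2 by 2.17 and Mal by 1.63 log2 units, and their part in the members' values was not tested.

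The response to IL1B was finally compared between cell types, with all 48 arrays normalised together. At P5 the difference passed for 0 of 8 genes in limma, where 10.7% of all probes passed in either direction, with 4 of 8 at an unadjusted p under 0.05 and 0 called by the methods' t-test. At P10 it was higher in O4+ cells for Olig2 (0.56 ± 0.12, limma adjusted p = 0.00603) and Olig1 (0.50 ± 0.12, limma adjusted p = 0.0166), 2 of 8 genes against 3.92% of all probes. With replicate number as a block, Sox8 also passed (0.53, limma adjusted p = 0.0362, against 0.15 without the block). The calls of Olig1 and Olig2 were lost with 75th percentile scaling, under which the median of all probes stood at -0.18.

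For each member, the 3 genes with the closest course over the 24 O4+ arrays were found among 14649 candidates, by the root mean square difference of log2 values after centring each gene. Nkx6-2 was nearest to Tmem151a (0.18), the microtubule-associated Tppp (0.30) and Prima1 (0.33), against an SD of 1.97 for Nkx6-2 itself. Sox10 (SD 0.32) was nearest to Armc6 (0.07), Ankrd46 (0.07) and Thop1 (0.07), and Zfp536 (SD 0.45) to Ddit4 (0.07), Cmip (0.08) and Rap1gds1 (0.09). Olig2 (SD 0.20) was nearest to Fchsd2, Srsf12 and Tlcd5, Nkx2-2 (SD 0.33) to Mkks, Palm3 and Zfp672, and Sox8 (SD 0.24) to Nckap1, Zfp235 and Lrrc4. Olig1 (SD 0.17) was nearest to Pomk, Sulf2 and Plxna3. The nearest genes of the leading Zfp488 probe were Fdps, an enzyme of sterol synthesis, Dpysl2 and Rybp, and those of the other Zfp488 probe were Vmn1r87, Zfp648 and 4930506C21Rik, at 0.33 to 0.34.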

How the data were processed

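RNA of O4+ and CD11B+ cells was hybridised to 48 single-colour arrays. The deposited scanner files hold spot intensity from Agilent Feature Extraction 10.7.3.1 (version per the file headers), which the authors' software had background-subtracted and detrended. The deposited matrix holds the processed signal as a ratio to each array's median, which reproduced from the scanner files within 1.86e-05 log2 units and served as an alternative. Control spots were left out, 278 non-uniform spots were set to missing, and log2 intensity was quantile-normalised, as in the authors' methods, over 24 or 48 arrays. Spots of a probe were averaged.

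The 13 comparisons were fitted with limma 3.58.1 in R 4.3.3 (lmFit, eBayes) on 55681 probes, with Benjamini-Hochberg adjustment over all of them. Responses were compared by interaction terms, with no fold threshold. The samples of a group are pools of pups, and p-values measure the spread between them. The bound for Nkx6-2 used, per array, the higher of the lowest signal among probes well above background and its own signal.

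Text names all 8 members, from each list the called genes with the largest changes, and the 3 nearest genes of a member. The members and lists were chosen with earlier results of these data known. Probes were named through RefSeq symbols (31381 probes, 22328 genes), and 1 list gene, Ly6c2, had no probe. The test was tried on simulated data. Alternatives covered scaling, background correction, the set of arrays normalised together, the deposited matrix, dim probes, the methods' t-test, the fold threshold and definition, the probe of a gene, blocks of slide, scan day or replicate number, and leaving out each array. Same-numbered arrays of PBS and IL1B correlated from -0.308 to 0.819 in their deviations from group means. The correlation was above 0.1 in 5 of 6 pairs of O4+ cells at P5 and 4 of 6 at P10. In CD11B+ cells it was above 0.1 in 1 of 6 pairs at each age. Whether numbers pair treatments cannot be told from these values. O4+ and CD11B+ cells came from the same animals by the methods, but no source says that a number marks an animal. Same-numbered arrays of the cell types correlated above 0.1 in 6 of 6 pairs after IL1B at P10 (0.267 to 0.715), 5 of 6 in PBS at P5 and at P10, and 2 of 6 after IL1B at P5.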

Additional observations from a re-analysis of the deposited data

Results flagged for a closer look

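Of 84 sets of 6 arrays (a probe in a group), 15 had a highest or lowest array far from the other 5 by Dixon's criterion, which chance alone meets in about 1 of 20. These sets share arrays. In O4+ cells at P10, replicate 6 was the lowest for Sox8 (12.23 in PBS, 12.25 in IL1B) and the highest for Sox10 (16.00 and 16.02) and the other Zfp536 probe (12.91 and 12.70), and replicate 6 of CD11B+ cells after IL1B at P10 was the lowest for Sox8 (7.11). These arrays were on the slide that stood apart. In CD11B+ cells after IL1B at P5, replicate 3 was the lowest for Sox10 (8.35) and both Nkx2-2 probes (5.34 and 3.57) and the highest for the leading Zfp488 probe (11.87) and both Zfp536 probes (8.42 and 7.92). Replicate 5 of CD11B+ cells from PBS pups at P5 was the highest for the leading Zfp536 probe (8.59), and replicate 4 of O4+ cells after IL1B at P5 was the lowest for Olig1 (15.64).

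The IL1B response of O4+ cells differed between P10 and P5 by the interaction term for Olig1 (0.33), Olig2 (0.47), the leading (0.46) and other (0.70) Nkx2-2 probes and the leading Zfp488 probe (-0.42), while the other Zfp488 probe (-0.52) did not pass. At P10 it differed between O4+ and CD11B+ cells for Olig1 (0.50) and Olig2 (0.56).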

How the results depend on the processing

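The counts of the 8 genes called depended mostly on scaling, the fold threshold and blocks. With 75th percentile scaling, 1 gene in place of 2 was lower after IL1B in O4+ cells at P5, the age difference of the O4+ response went from 3 higher and 1 lower to 0 and 3, with Olig1 at -0.0154, and 0 in place of 2 responses at P10 were higher in O4+ than in CD11B+ cells. In O4+ against CD11B+ cells at P5 the median of all probes stood at -0.35 with that scaling and at -0.45 with the deposited matrix. With normexp background correction, 0 genes were lower after IL1B at P5 in either cell type, the lower O4+ age differences came to 2, 3 in place of 5 genes rose with age in CD11B+ cells, and 1 response at P10 was lower in O4+ than in CD11B+ cells. The deposited matrix gave 5 in place of 3 genes rising with age in IL1B O4+ cells, and 0 higher and 1 lower response at P10 between cell types.

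Without a fold threshold, 4 genes were lower after IL1B at P5 in O4+ and 4 in CD11B+ cells, 1 was higher and 2 lower at P10 in O4+ cells, and with age 5 rose and 1 fell in PBS and 7 rose in IL1B O4+ cells. With the fold from mean log2 values, 1 gene in O4+ and 4 in CD11B+ cells were lower at P5. The lower O4+ age differences were 2 after normalising all 48 arrays together, 2 without dim probes and 0 with the other Zfp488 probe. With slide as a block, 0 genes were lower in CD11B+ cells at P5, 2 rose with age there, 0 O4+ age differences were lower, and 1 response at P10 was higher and 1 lower in O4+ than in CD11B+ cells. With scan day as a block, 0 genes were called in both CD11B+ comparisons named here, 5 O4+ age differences were higher, and 4 responses at P10 were higher in O4+ cells. Leaving out the slide that stood apart gave 5 higher O4+ age differences. This omission and the Zfp488 alternative were chosen after seeing the data. The cause of these shifts was not tested.

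Leaving out 1 array at a time gave 0 to 2 genes called lower in O4+ and 1 to 3 in CD11B+ cells at P5. The O4+ age differences came to 2 to 4 higher and 1 to 2 lower. With age, 3 to 4 genes were called higher in IL1B O4+ cells and 4 to 5 in PBS CD11B+ cells. The other counts did not change. Of the single probe values under other settings, 1593 stayed called or stayed not called, 43 lost a call, 45 gained a call, and 1 with a call changed sign. Sign changes of values not called under either setting count among the 1593. Same-numbered PBS and IL1B arrays correlated above 0.1 in 5 of 6 pairs of O4+ cells at P5 and 4 of 6 at P10. In CD11B+ cells this held for 1 of 6 pairs at each age. Same-numbered O4+ and CD11B+ arrays correlated above 0.1 in all 6 pairs after IL1B at P10 and in 5 of 6 in PBS at P5 and at P10. After IL1B at P5 this held for 2 of 6 pairs. With replicate number as a block, 3 in place of 2 responses at P10 were higher in O4+ than in CD11B+ cells, while the counts of every other comparison did not move. Signal over background limits Nkx6-2 in CD11B+ cells.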
